A study of Mus musculus with 12 samples.

Results

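The genes of the complement system described here are 9 of the 36047 genes measured by bulk RNAseq of mouse cortex. They are the C1q chains C1qa, C1qb and C1qc, the central components C3 and C4b, the receptors C3ar1, C5ar1 and C5ar2, and the inhibitor Serping1, and each was taken by its symbol in the deposited identifier table, in which all 9 have a single gene identifier. The 4 groups compared held 3 libraries each, WT and Gde2KO cortices at 4 months and WT and Gde2KO cortices at 19 months, 12 libraries in all. Gde2KO mice (Gde2-/-) lack GDE2, a glycerophosphodiester phosphodiesterase encoded by Gdpd5 that cleaves GPI anchors at the cell surface, in every tissue and from conception, so that the loss is not limited to any cell type of the brain. Polyadenylated RNA was sequenced from each cortex, mice of either sex were used in the study, no agent was given to these groups, and their strain is not given in the sources used here. The 4-month libraries carry replicate numbers 1 to 3, and the 19-month libraries carry none and are called A, B and C. In bulk tissue, fewer cells of a type and less RNA per cell cannot be told apart.

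Complement is a cascade of plasma and tissue proteins that tags targets for removal. C1q binds a target and starts the classical pathway, the proteases C1r and C1s then cleave C4 and C2, and the enzyme so formed cleaves C3, whose fragment C3b coats the target while the small fragment C3a signals through C3ar1. Cleavage of C5 further down gives C5a, the ligand of C5ar1 and C5ar2, and opens the terminal, pore-forming pathway. In brain, microglia are the main source of C1q and carry C3ar1 and C5ar1, astrocytes express C4 and, when reactive, C3, and complement is known for tagging synapses that microglia remove in development, aging and neurodegeneration.

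All 9 genes lie on the minus strand of GRCm38 by the GENCODE vM21 annotation. The C1q genes are neighbors on chromosome 4, C1qb at chr4:136880129-136886187, C1qc at chr4:136889804-136893065 and C1qa at chr4:136895917-136898803, within a span of 18675 bp. C5ar2 at chr7:16234585-16244154 lies 2588 bp from C5ar1 at chr7:16246743-16259540. C3 is at chr17:57203970-57228136, C4b at chr17:34728380-34743882, C3ar1 at chr6:122847138-122856161 and Serping1 at chr2:84765387-84775444. C5ar2 has 2 annotated coding transcripts that start at different first exons. They share the rest of the coding sequence in their last exon, which reaches further downstream in C5ar2-201. They are shown because the transcript result below turns on them. The first 26 coding bases, which lie in the first exon of each transcript and are not shared, are in capitals, and the following 24 bases, which both transcripts share (chr7:16237951-16237974), are in lower case. The part in capitals is chr7:16242293-16242318 in C5ar2-201 (ENSMUST00000098792.9) and chr7:16244023-16244048 in C5ar2-202 (ENSMUST00000171425.2), and 11 of the 26 bases are the same at the same place.
C5ar2-201: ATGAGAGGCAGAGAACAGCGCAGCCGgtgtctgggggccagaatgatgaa
C5ar2-202: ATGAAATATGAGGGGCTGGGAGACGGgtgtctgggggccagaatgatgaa

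The DNA just before the start of transcription is shown for C1qb and C1qc, whose levels moved together across libraries, and for both starts of C5ar2. Sequences are RefSeq promoter windows of build GRCm38.p6, on the minus strand, each limited to the bases upstream of its own annotated start. They lie at chr4:136886201-136886450 for C1qb, chr4:136893066-136893164 for C1qc, chr7:16242332-16242581 for C5ar2-201 and chr7:16244155-16244404 for C5ar2-202. The C5ar2-201 window is downstream of the C5ar2-202 start, within an intron of that transcript. Capitals mark the letters AGGAAG, or CTTCCT on the other strand, which form the core of sites bound by ETS factors such as PU.1, the factor that specifies microglia and other myeloid cells. Windows were available for C1qb, C1qc, C3, C3ar1, C5ar1 and both starts of C5ar2. Within the bases upstream of the annotated starts the motif stood in 4 of these 7 windows, the ones printed here, and it was not in those of C3, C3ar1 and C5ar1, of which C5ar1 had only 48 such bases. The full 250 bases before each RefSeq start take in a GENCODE start for C1qc, C3ar1 and C5ar1. Over them the motif stood in 5 of 7 member windows, C5ar1 being the fifth, and in 9686 of all 32851 windows (29.5%). A match is a run of letters, and binding was not measured.
C1qb: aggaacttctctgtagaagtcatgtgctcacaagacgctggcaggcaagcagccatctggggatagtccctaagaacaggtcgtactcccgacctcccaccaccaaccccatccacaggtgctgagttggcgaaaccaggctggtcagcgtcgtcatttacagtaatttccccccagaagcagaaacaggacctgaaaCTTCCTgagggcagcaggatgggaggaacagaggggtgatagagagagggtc
C1qc: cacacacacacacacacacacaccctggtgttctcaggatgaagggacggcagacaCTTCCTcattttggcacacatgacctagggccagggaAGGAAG
C5ar2-201: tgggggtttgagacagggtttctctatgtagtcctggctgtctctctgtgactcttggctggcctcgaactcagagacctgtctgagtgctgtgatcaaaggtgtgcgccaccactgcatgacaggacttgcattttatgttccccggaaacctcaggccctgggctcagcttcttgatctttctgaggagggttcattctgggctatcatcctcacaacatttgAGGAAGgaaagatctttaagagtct
C5ar2-202: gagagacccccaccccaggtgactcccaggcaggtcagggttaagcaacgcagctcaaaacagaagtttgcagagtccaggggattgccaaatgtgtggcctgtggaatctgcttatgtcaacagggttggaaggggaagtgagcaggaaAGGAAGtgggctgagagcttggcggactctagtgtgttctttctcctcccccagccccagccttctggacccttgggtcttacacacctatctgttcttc

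Values are normalized counts, the estimated counts of Kallisto divided by a size factor for each library and summed over the transcripts of a gene. Levels of different genes are compared in TPM, which are per length and scaled by library in the same way. The libraries held 46434270 to 59728494 estimated reads at 4 months and 3707928 to 44604721 at 19 months. WT library A at 19 months (6734475 reads) and Gde2KO library A (3707928 reads) were the shallowest, and 1 read is worth 4.66 and 8.29 normalized counts there. Gdpd5 was lower in Gde2KO in every library at both ages, with 684 to 1199 normalized counts in WT against 403 to 585 at 4 months, and 952 to 1129 against 441 to 560 at 19 months. The 4-month WT replicates 1 and 2 stood apart in tissue content, with a summed 179 and 187 TPM of 6 hippocampal markers against 53.7 to 73.4 in the other 4-month libraries, and 109 and 81.4 TPM of 6 striatal markers against 618 to 1615. Replicate 1 of 4-month Gde2KO stood apart in 11 secreted proteins of the liver (415 TPM against 3.68 to 8.86 in the other 4-month libraries). The microglial markers Tmem119 (506 to 973), P2ry12 (492 to 1559) and Cx3cr1 (959 to 1410 normalized counts) were present in every library.

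The C1q chains were by far the most abundant of the 9 transcripts. In 4-month WT cortices C1qa stood at 69.7 ± 11.4 TPM (SD, n = 3), C1qb at 56.8 ± 10.9 and C1qc at 41.2 ± 4.84. C4b followed at 17.3 ± 9.97 TPM and Serping1 at 4.47 ± 0.945, and C5ar2 (0.986 ± 0.0978), C5ar1 (0.400 ± 0.113), C3ar1 (0.397 ± 0.0762) and C3 (0.329 ± 0.171) lay near or below 1 TPM. Neighbors whose ranges overlapped in this order were C1qa and C1qb, C1qb and C1qc, C5ar1 and C3ar1, and C3ar1 and C3. The overlap of C3ar1 and C3 rests on WT replicate 3, where C3 stood at 0.525 TPM. Of this, 0.308 TPM came from 1.17 estimated reads of the 315-base transcript C3-204. The longest transcript, C3-201, stood at 0.216, 0.245 and 0.217 TPM in WT replicates 1 to 3, below the lowest C3ar1 value of 0.348. In 19-month WT cortices the order of the upper 5 was the same, C3ar1 had come to stand at 2.001 ± 0.267 TPM, C3 at 1.78 ± 1.39 and C5ar1 at 1.28 ± 0.210, and C5ar2 was last at 1.15 ± 0.406. The ranges of those lower 4 each overlapped with the next. All these levels sum the transcripts of a gene, short ones included. In 4-month WT the coding transcript C4b-201 held a mean of 56.0% of the C4b TPM, and the shorter C4b-202 and C4b-203 held 25.1% and 18.9%. In 19-month WT the short C5ar1-203 held a mean of 21.5% of the C5ar1 TPM.

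**Figure D1:**
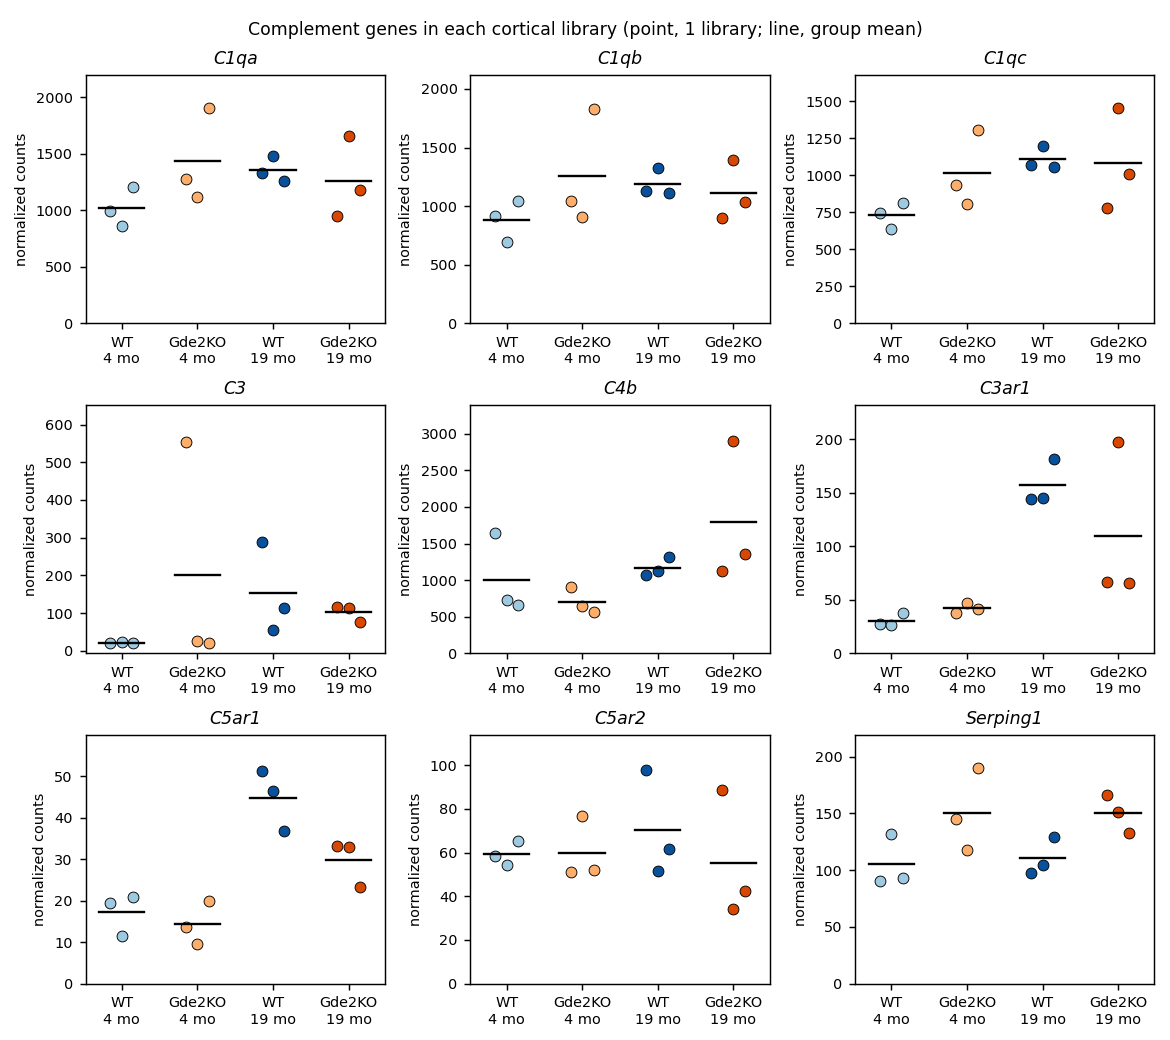
Normalized counts (y axis) of the 9 complement genes in the 4 groups (x axis), with 1 point per library and a line at the group mean. C3ar1 and C5ar1 are higher in every 19-month library than in any 4-month library, and C3 has a single point at 553 in 4-month Gde2KO.

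The first comparison asked whether complement expression differed between Gde2KO and WT cortices, and none of the 9 genes was called at either age. At 4 months the C1q chains lay higher on average in Gde2KO. C1qa stood at 997, 864 and 1203 normalized counts in WT and at 1277, 1116 and 1905 in Gde2KO. C1qb stood at 915, 697 and 1042 in WT and at 1039, 907 and 1831 in Gde2KO, and C1qc at 745, 636 and 812 against 933, 804 and 1303. The groups overlapped for all 3 chains, and Gde2KO replicate 3 was the highest library for C1qa and C1qb among all 12. The log2 fold changes were 0.46 for C1qa and C1qb and 0.45 for C1qc, with 95% intervals of -0.05 to 0.97, -0.18 to 1.09 and -0.01 to 0.91 (limma, adjusted p = 0.469, 0.503 and 0.463). Without Gde2KO replicate 3 they were 0.24, 0.15 and 0.25. That library also held the largest sum of 12 microglial markers, 405 TPM against 224 to 287 in the other 4-month libraries. Its totals were larger too, at 41229100 normalized counts against 31917400 to 35949200 and 1472300 TPM against 1003570 to 1103970. The marker sum and the C1q values of that library are both on this larger scale. Under a trimmed mean of M values scaling the log2 fold changes of C1qa, C1qb and C1qc were 0.37, 0.36 and 0.35. In TPM they were 0.42, 0.42 and 0.41, and none was called either way. Beyond these values, the part of the markers or of the scale in the C1q values was not tested.

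Serping1, the inhibitor of C1r and C1s, stood at 90.1, 132 and 93.2 normalized counts in 4-month WT and at 145, 118 and 190 in Gde2KO, with overlap. At 19 months it stood at 97.8, 105 and 129 in WT and at 166, 152 and 133 in Gde2KO, and the groups did not overlap. The log2 fold change was 0.51 (95% interval -0.06 to 1.09) at 4 months and 0.44 (0.02 to 0.86) at 19 months, and neither passed (limma, adjusted p = 0.471 and 0.711, unadjusted p = 0.0743 and 0.0402). Without Gde2KO replicate 3 the 4-month value was 0.33. In the shallow A libraries these values rest on 21 reads in WT and 20 in Gde2KO.

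C4b, which carries the classical pathway from C1 to C3, stood at 1638, 723 and 664 normalized counts in 4-month WT and at 902, 650 and 561 in Gde2KO. At 19 months it stood at 1072, 1120 and 1314 in WT and at 1120, 2901 and 1363 in Gde2KO, where library B was the highest of all 12. The log2 fold changes were -0.42 at 4 months and 0.50 at 19 months (limma, adjusted p = 0.582 and 0.734), and the groups overlapped at both ages. Without 4-month WT replicate 1 the first value was -0.0053, and without 19-month Gde2KO library B the second was 0.086, so that each rests on 1 library. The extreme libraries of C4b were also those with the most Gfap, the intermediate filament of reactive astrocytes, a gene picked after its values were seen. Gfap stood at 24555 normalized counts in 4-month WT replicate 1 and at 11037 in 19-month Gde2KO library B, against 3672 to 7548 in the other 10 libraries. Over all 12 libraries the Pearson r of C4b with Gfap on the log2 scale was 0.56. The genes nearest to C4b in pattern, among 14294, were Cep131, Iqsec2 and Med15 (0.88, 0.86 and 0.86). Over 8 genes of reactive astrocytes, Gfap among them, the summed TPM was 151 to 743 in 4-month WT and 139 to 164 in 4-month Gde2KO. At 19 months it was 183 to 205 in WT and 175 to 340 in Gde2KO. Gfap alone reached 539 TPM, so this sum is no second measure beside it. By genotype 2 of the 8 genes had a positive fold change at 4 months and 3 of the 8 at 19 months. The part of these genes in the C4b values was not tested.

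C3 stood at 20.2, 23.0 and 20.9 normalized counts in 4-month WT, and at 553, 27.5 and 20.02 in 4-month Gde2KO. The difference between these groups rests on Gde2KO replicate 1. The log2 fold change was 1.65 (95% interval -0.89 to 4.18, limma adjusted p = 0.522), and without that library it was 0.14. In the same library Alb, the serum albumin made by the liver, stood at 4903 normalized counts against 0 to 8.29 in the other 11 libraries, and the terminal component C9 stood at 37.6 and was listed at 0 in all others. The genes whose pattern was nearest to that of C3 over the 12 libraries, among 14294 genes, were Car3, Pigr and Cyp2e1 (Pearson r on the log2 scale of 0.91, 0.88 and 0.88). The part of liver transcripts in the C3 value was not tested. At 19 months C3 stood at 289, 55.9 and 113 normalized counts in WT and at 116, 114 and 77.2 in Gde2KO, with overlap and a log2 fold change of -0.28 (limma, adjusted p = 0.889).

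**Figure D2:**
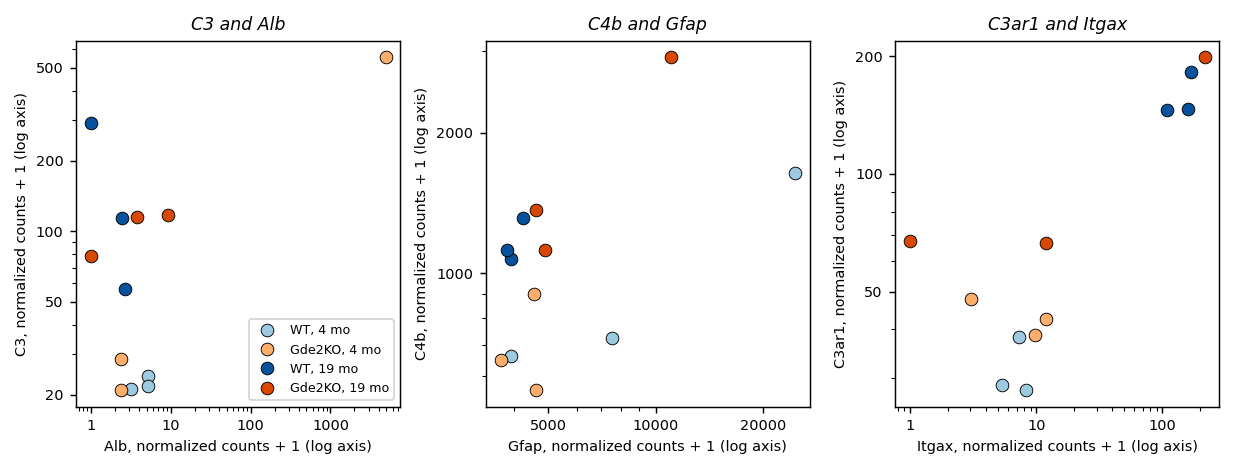
Normalized counts plus 1 on log axes, C3 against Alb, C4b against Gfap and C3ar1 against Itgax, with 1 point per library in the color of its group. The single high Alb library (4903) has the highest C3 (553), the 2 libraries highest in Gfap have the highest C4b, and the 4 libraries above 100 for Itgax have the highest C3ar1.

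Of the anaphylatoxin receptors, C3ar1 stood at 27.8, 27.0 and 37.4 normalized counts in 4-month WT and at 37.7, 46.9 and 41.5 in Gde2KO. These groups did not overlap, and the log2 fold change of 0.45 (95% interval -0.14 to 1.05) did not pass (limma, adjusted p = 0.493). At 19 months it stood at 144, 145 and 182 in WT and at 66.3, 198 and 65.7 in Gde2KO, so that Gde2KO libraries A and C lay below all WT libraries and library B above them (log2 fold change -0.71, limma adjusted p = 0.734). The value was -1.24 without library B (limma, adjusted p = 0.143), and -0.45 and -0.44 without library A or C. C5ar1 stood at 19.5, 11.5 and 20.9 in 4-month WT and at 13.8, 9.62 and 20.02 in Gde2KO. At 19 months it stood at 51.2, 46.6 and 36.8 in WT and at 33.2, 33.0 and 23.4 in Gde2KO without overlap, at a log2 fold change of -0.58 (95% interval -1.31 to 0.14, limma adjusted p = 0.734), and library A of Gde2KO gave it 4 reads.

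Few genes were called by genotype in these libraries. Of 19035 genes tested at 4 months 24 were called (0.126%), and of 18583 at 19 months 18 (0.0969%), by limma at an adjusted p under 0.1 and a natural-log fold change beyond 0.5. At an unadjusted p under 0.05, 0 members passed at 4 months and 1, Serping1, at 19 months, where 10.6% and 6.91% of all tested genes passed. Groups of libraries did not overlap for 1 member at 4 months (C3ar1) and for 2 at 19 months (Serping1 and C5ar1), where 15.4% and 14.2% of all tested genes did not overlap. The median log2 fold change of the 9 members was 0.45 at 4 months and -0.14 at 19 months, beside 0.11 and -0.02 over all genes tested.

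**Figure D3:**
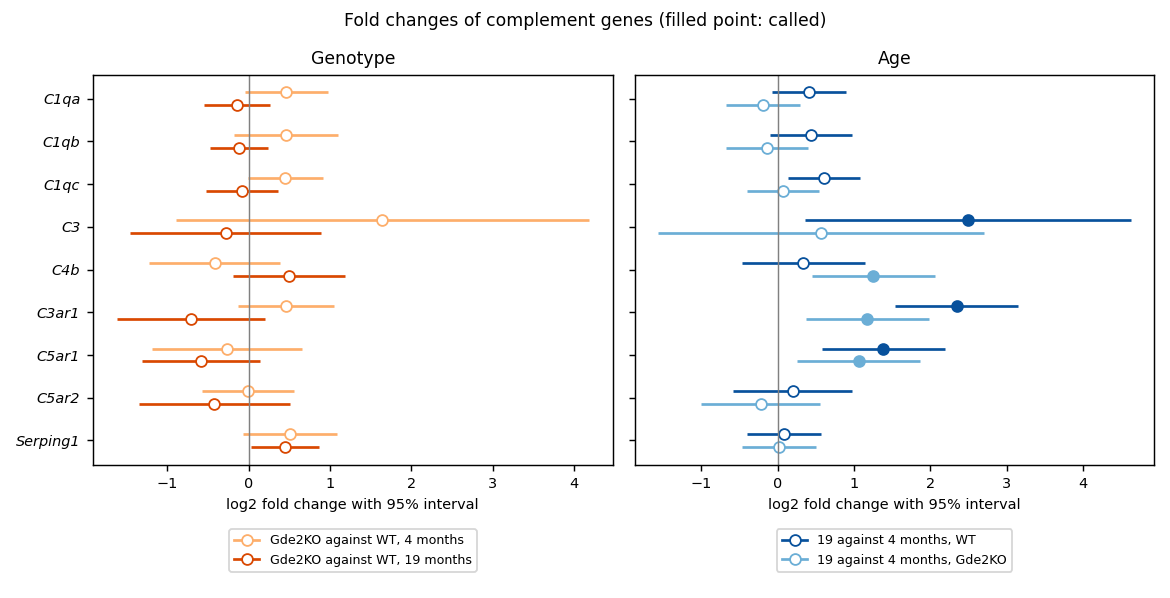
Log2 fold changes (x axis) of each gene with 95% intervals from limma, by genotype at each age (left) and by age in each genotype (right), where filled points mark genes that were called. No genotype point is filled, and the filled age points are C3, C3ar1 and C5ar1 in WT and C4b, C3ar1 and C5ar1 in Gde2KO.

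The second comparison set 19-month against 4-month cortices within each genotype. The ages are different animals and different sets of libraries, so age and library set cannot be told apart. In WT, 3 of the 9 genes were called, all higher at 19 months. C3ar1 rose in WT by 2.34 on the log2 scale (95% interval 1.54 to 3.14, limma adjusted p = 0.00229), C5ar1 by 1.38 (0.58 to 2.19, adjusted p = 0.0247) and C3 by 2.49 (0.36 to 4.62, adjusted p = 0.0933). For all 3, every 19-month WT library lay above every 4-month one. The call of C3ar1 held when any single library was left out, that of C5ar1 was lost without 4-month WT replicate 2 (1.12, adjusted p = 0.111), and that of C3 was lost in 8 of 12 such fits. The 11 secreted proteins of the liver summed to 3.68 to 7.78 TPM in 4-month WT and to 46.9 to 59.8 TPM in 19-month WT. Few of them carried that sum. In 19-month WT libraries A, B and C, 8, 3 and 5 of the 11 genes were at 0, against 2, 2 and 6 in 4-month WT replicates 1 to 3. Only 4 of the 11 were tested with age in WT, and 1 was called higher. The part of liver genes in the C3 value was not tested. None of the 3 passed in WT without the 4-month libraries that stood apart (C3ar1 2.05, limma adjusted p = 0.136), which left 1 WT library at that age.

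In Gde2KO the genes called were C4b, C3ar1 and C5ar1, again all higher at 19 months and without overlap. C4b rose by 1.25 (95% interval 0.45 to 2.05, limma adjusted p = 0.0339), C3ar1 by 1.18 (0.38 to 1.98, adjusted p = 0.0410) and C5ar1 by 1.06 (0.26 to 1.87, adjusted p = 0.0591). Each of these calls rests on single libraries. Without 19-month library B the changes were 0.84, 0.65 and 0.98, and none passed (limma, adjusted p = 0.118, 0.113 and 0.149). C4b was also lost without 4-month replicate 3 (1.10, limma adjusted p = 0.114). Without 4-month replicate 1, the library high in Alb, C3ar1 (1.10) and C5ar1 (1.06) did not pass, and C3, which had a log2 fold change of 0.57 over all libraries, stood at 2.08 and passed (limma, adjusted p = 0.103, 0.116 and 0.0338). C5ar1 was lost as well without 4-month replicate 2 or without library A.

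The C1q chains were not called with age. In WT every 19-month library (C1qa 1260 to 1478, C1qb 1112 to 1326, C1qc 1053 to 1197 normalized counts) lay above every 4-month one, and the log2 fold changes were 0.42, 0.44 and 0.60. C1qc had a limma adjusted p of 0.0712 and stayed under the fold threshold of 0.721. In Gde2KO the changes were -0.19, -0.14 and 0.07, the groups overlapped, and the first 2 turned sign without the shallow libraries. Serping1 (0.09 in WT and 0.02 in Gde2KO) and C5ar2 (0.20 and -0.22) did not pass either.

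Over all 18731 genes tested, limma called 2565 with age in WT (13.7%), of which 1179 were higher (6.29%), and 2224 in Gde2KO (11.9%), of which 478 were higher (2.55%). Groups did not overlap for 6 of the 9 members in WT and 3 in Gde2KO, in a background of 46% and 41.2%. The median of all genes in Gde2KO was -0.21, and under a trimmed mean of M values scaling it was -0.04 and the share of higher genes among those called went from 21.5% to 44.5%. C4b, C3ar1 and C5ar1 kept their direction and their calls under that scaling. The medians of the 9 members were 0.44 in WT and 0.07 in Gde2KO, beside -0.07 and -0.21 over all genes.

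Over the 12 libraries the genes nearest to C3ar1 in pattern, among 14294, were Plau, Itgb2 and Cdt1 (Pearson r of 0.98, 0.98 and 0.96). Itgb2, the beta chain of complement receptors CR3 and CR4, rose with age in WT by 1.45 (limma, adjusted p = 0.0121). Itgax, the alpha chain of CR4 and a gene of activated microglia, stood at 2.06 to 11.0 normalized counts in the 4-month libraries and at 107, 157 and 168 in 19-month WT. In 19-month Gde2KO it was listed at 0 in library A, where 3 reads would be worth 24.9, and stood at 215 in library B and 10.9 in library C. The same library B held the highest C3ar1 of its group. The sum of 9 activated microglia genes was 162 to 166 TPM in 19-month WT and 115, 199 and 110 TPM in Gde2KO libraries A, B and C, and 12 microglial markers summed to 230 to 245 and 232 to 291 TPM. The C1q chains had one another and Ctss, a cathepsin of microglia, among their nearest genes (C1qa with C1qb 0.97, C1qa with C1qc 0.93, C1qa and C1qb with Ctss 0.95). The libraries share their age sets in these correlations, and they are given as a description. For C5ar1, which neutrophils also express, 7 neutrophil markers summed to 1.24 to 2.98 TPM at 4 months and 6.89 to 32.0 TPM at 19 months. Only 3 of the 7 were tested with age. Of these, 2 were called higher in WT and 1 in Gde2KO, where that 1 was the only positive change. The sums of 5 blood markers were 481 to 1661 TPM at 4 months and 882 to 4805 TPM at 19 months. The part of neutrophils or other blood cells in the C5ar1 values was not tested.

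Whether the genotype difference itself changed with age was tested by the interaction in the 4-group fit, and 0 of the 9 genes passed, beside 9 of 18731 genes (0.048%). The largest members by p were C3ar1 at -1.17 (95% interval -2.30 to -0.03, limma unadjusted p = 0.0445, adjusted p = 0.384) and C1qa at -0.60 (limma, adjusted p = 0.414). C3ar1 was the only member under an unadjusted p of 0.05, where 12.9% of all tested genes lay. The called sets of the genotypes in the age comparison therefore do not show that C3 or C4b changed differently in WT and Gde2KO.

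Transcript usage asks whether the share of a gene's transcripts changed, whatever the gene's level. C5ar2 was the only member called, at 19 months, among 21 of 12253 genes (0.171%). Its shares were already known from an earlier look at these data. The call and the p-values below therefore describe the values that led to its choice and are no independent test. At 4 months no member was called among 137 of 12235 genes (1.12%). As a gene C5ar2 was not called, at 58.5, 54.3 and 65.1 normalized counts in 4-month WT and 51.2, 76.6 and 51.9 in Gde2KO, and at 97.9, 51.6 and 61.7 in 19-month WT and 88.8, 34.0 and 42.6 in Gde2KO (log2 fold change -0.01 and -0.42, limma adjusted p = 0.991 and 0.778). In the 3 19-month WT libraries C5ar2-201 took 100% of the TPM. C5ar2-202 took 100%, 100% and 60.1% in Gde2KO libraries A, B and C. The difference in the mean share of C5ar2-202 was 86.7 percentage points (limma diffSplice F test, adjusted p = 0.0215), and the shares of the groups did not overlap. An exact two-sided permutation test of the share gave p = 0.1, the smallest that 3 against 3 libraries allow.

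At 4 months the same share varied widely within a genotype. C5ar2-202 took 43.5%, 27.5% and 76.7% in the WT libraries and 55.2%, 0.340% and 100% in the Gde2KO libraries, so that libraries of one genotype lay at opposite ends. The groups differed by 2.61 points (limma diffSplice, adjusted p = 1, exact permutation p = 1). The 19-month shares rest on 21.0, 60.9 and 85.6 estimated reads in WT libraries A, B and C and on 10.7, 48.4 and 54.6 in Gde2KO. Most of the annotated sequence is held by both transcripts, since 179 of the 3399 runs of 31 bases in C5ar2-201 and 131 of 3351 in C5ar2-202 are absent from the other. Where the reads fell along the transcripts was not examined. Of the 179, 38 lie at the 5′ end, over the first exon shown above, and 141 in a longer 3′ end, while all 131 of C5ar2-202 are at the 5′ end. Without both shallow libraries the difference was 80.1 points and did not pass (limma diffSplice, adjusted p = 0.130), and it did not pass without WT library A (0.168) or B (0.123). Whether the change in share differed between the ages was not tested.

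**Figure D4:**
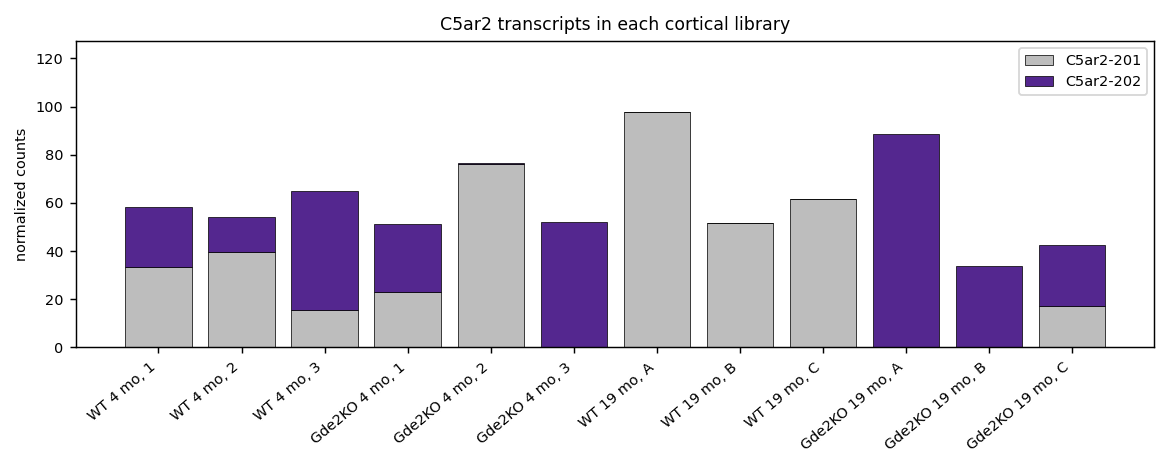
Normalized counts (y axis) of C5ar2-201 and C5ar2-202, stacked, in each of the 12 libraries (x axis). The 19-month WT bars are all C5ar2-201 and the 19-month Gde2KO bars all or mostly C5ar2-202, while at 4 months Gde2KO replicate 2 is nearly all C5ar2-201 and replicate 3 all C5ar2-202.

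The shares of C5ar1 also went from one extreme to the other within a group. C5ar1-202 took 100%, 0% and 99.7% in the 4-month WT libraries and 0% in all 3 Gde2KO libraries, at 9.62 to 20.9 normalized counts for the whole gene, a difference of 66.6 points that did not pass (limma diffSplice, adjusted p = 0.173). Its transcripts have 2, 87 and 0 runs of 31 bases of their own. The other members with several transcripts tested, C1qc, C4b and Serping1, differed by 0.177 to 7.49 points at either age and did not pass.

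The rest of the pathway was read from lists of 51 further complement genes, of which 39 were tested at 4 months and 40 in the other comparisons. None was called by genotype at either age or by the interaction. With age in WT 7 were called higher and 5 lower, and in Gde2KO 3 higher and 1 lower. Over all genes tested, 13.7% were called with age in WT (6.29% higher) and 11.9% in Gde2KO (2.55% higher). Whether the calls of these further genes hold without the 4-month libraries that stood apart was not examined. The C1 proteases C1s1 (2.49) and C1ra (2.11) were higher with age in WT on the log2 scale, and C1s1 passed in Gde2KO too (0.75, limma adjusted p = 0.0995), while C1ra did not (0.31). Each has a near-identical copy in the genome, so reads may be split between copies. In the alternative pathway Cfp, properdin, was higher in both genotypes (0.83 and 0.88). Cfd, factor D, stood at 0 to 2.51 normalized counts in the 4-month libraries and at 50.8 to 186 at 19 months, and was called in both genotypes. Among the regulators Cd46 was called higher in WT (1.20). Cd55, which speeds the decay of C3 convertases on the cell surface, was lower in both genotypes (-0.98 in WT and -1.06 in Gde2KO), and Cd59a (-0.99), Sez6 (-0.74) and Csmd3 (-0.89) were lower in WT. Cd55 and Cd59a each have a related gene too, Cd55b and Cd59b. Itgb2 and Itgax were the other genes higher in WT, and Hc, the gene of C5, was lower there (-2.70, limma adjusted p = 0.0811) from 17.3, 10.3 and 7.17 to 0, 5.08 and 1.44 normalized counts. The most abundant of the other genes of each list, Clu (643 TPM over all libraries), Sez6l2 (204), C1qbp (86.8), Masp1 (11.4), C2 (8.18), Cfb (8.96), C8g (6.50), C7 (0.79) and Itgam (6.85), passed in no comparison.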

How the data were processed

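The data are bulk RNAseq of polyadenylated RNA from 12 mouse cortices. Per the labels and the study's methods, the authors quantified reads against transcripts of GRCm38 with Kallisto and modelled the result in Sleuth, and the submitters' processing notes also name bcl2fastq 2.17, Trimmomatic 0.36 and STAR 2.5.2b. The authors deposited transcript-level signal values, estimated counts divided by a size factor of the library, and a like table of signal made from TPM. These are not read counts, so no count model was used. The value of 1 read was taken as the commonest low value of a library and gave the estimated reads. Of 118489 transcripts, 1673 have no gene (0.541% to 0.605% of a library). The authors' size factors pass any error in scaling on to every gene of a library. 0 columns were left without a group, and 0% of values were identical between libraries.

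Transcripts were summed by gene. limma 3.58.1 (R 4.3.3, intensity trend) was fitted to log2(normalized count + 0.5) of genes with 5 or more in 47% of libraries, within each age for genotype and over the 4 groups for age and interaction, with Benjamini-Hochberg adjustment over all genes tested. Fold changes are on that log2 scale, which understates changes of low genes. A call needed adjusted p below 0.1 with a natural-log fold change beyond 0.5 (0.721 on the log2 scale), and by adjusted p alone for the interaction. Usage was tested by diffSplice on transcripts with a mean of 5 or more and a call needed adjusted p below 0.1 with a share difference above 10 points. The study counts animals as n, and p-values measure the spread between these libraries.

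The members, gene lists and tests were chosen with earlier results of these data known, and the lists of liver, activated microglia and reactive astrocyte genes were added after values were seen. Named are the 9 members, Gdpd5, listed complement genes that were called or are among the 2 most abundant of their list, the markers that define a list, and the 3 genes nearest to a member in pattern (mean of 50 or more). Alb, Gfap and C9 were named after their values were seen. Sequences came from GENCODE vM21 and RefSeq (GRCm38.p6). Scripts were tested on simulated data with known changes. Tables were handled in pandas 2.3.3 and plots drawn with matplotlib 3.10.9 (python 3.11.15).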

Additional observations from a re-analysis of the deposited data

How the results depend on the processing

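The alternatives were other pseudocounts, filters and scalings, TPM, no intensity trend, quality weights, a 4-group fit, each library left out in turn and, chosen after seeing the data, the fits without the 3 4-month libraries that stood apart. Of 885 values of member fold changes under them, 803 kept their direction and their side of the threshold, 28 lost a call, 9 gained one and 45 changed sign. The cause of each change was not tested. Depth limits the 19-month A libraries, where 3 reads are worth 14.0 normalized counts in WT and 24.9 in Gde2KO. C3ar1 and C5ar1 were too low for the filter at a mean of 50 in some comparisons. The members called with all libraries and settings as described were 0 by genotype at either age, 3 with age in each genotype, 0 by the interaction, and 0 and 1 for usage at 4 and 19 months. Gene-by-gene quality weights gave 1 called member at 4 months (C3, 3.92), 5 with age in WT and 4 by the interaction, beside 2420 and 6460 of all genes at 4 months and by the interaction. The fits without the 4-month libraries that stood apart gave 0 with age in WT, and those without both shallow libraries gave 0 for usage at 19 months. With 1 library left out, the members called ranged from 1 to 3 with age in WT, from 0 to 3 with age in Gde2KO, and from 0 to 1 for usage at either age, and stayed at 0 for the others.

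The values that changed sign were those of members not called in that comparison. Under quality weights C5ar1 stood at 0.011 at 4 months, C3 at 0.15 at 19 months, Serping1 at -0.15 with age in WT, -0.03 with age in Gde2KO and 0.12 for the interaction, and with age in Gde2KO C1qa stood at 0.041, C1qb at 0.13 and C3 at -2.10 (limma, adjusted p = 0.0180). Without both shallow libraries C1qa stood at 0.034, C1qc at 0.11 and C3 at 0.24 at 19 months, C5ar2 at -0.067 with age in WT, and C1qa at 0.0022, C1qb at 0.0038 and Serping1 at -0.060 with age in Gde2KO. Under trimmed mean of M values scaling C1qb stood at 0.028 with age in Gde2KO and Serping1 at 0.046 for the interaction, and with TPM Serping1 stood at -0.071 with age in WT and 0.086 for the interaction. With 1 library left out, the values that changed sign ranged from -0.19 to 0.093 for C5ar2 at 4 months, and at 19 months from -0.36 to 0.047 for C1qa, -0.30 to 0.022 for C1qb, -0.32 to 0.13 for C1qc and -0.84 to 0.34 for C3. With age in WT they ranged from -0.067 to 0.39 for C5ar2 and -0.029 to 0.26 for Serping1, and in Gde2KO from -0.40 to 0.039 for C1qa, -0.34 to 0.17 for C1qb, -0.16 to 0.29 for C1qc, -0.30 to 2.08 for C3, -0.62 to 0.064 for C5ar2 and -0.15 to 0.20 for Serping1. The interaction of Serping1 ranged from -0.25 to 0.11 and the C5ar2 share difference at 4 months from -21.5 to 28.4 points.

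Over all alternatives the genes called were 3 to 2420 at 4 months, 7 to 57 at 19 months, 395 to 4125 with age in WT, 1096 to 2929 with age in Gde2KO, 1 to 6460 by the interaction, and 88 to 721 and 20 to 138 for usage at 4 and 19 months. At 4 months same-numbered WT and Gde2KO libraries did not deviate together (r of 0.06, 0.01 and -0.05, against -0.14 to 0.11 for differently numbered ones). With so small a spread these values cannot tell whether the numbers pair libraries, and the labels do not say. A replicate block gave 0 called members, 21 of all genes against 24, and 0 members and 114 genes for usage against 137. No paired analysis was possible at 19 months because the columns carry no replicate numbers.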
